A study of Mus musculus and Homo sapiens with 59 samples.

Results

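The 38 genes described here drive or mark the cell division cycle: 20 mitotic genes, 12 S phase genes and 6 G1 genes. They were chosen by name from lists of cyclins, mitotic kinases, motors, replication factors and G1 regulators, and all 38 were found among the 19407 rows of the mouse table and, under their upper case symbols, among the 22192 rows of the human table. Polyadenylated RNA of cultured cells was measured in 59 libraries, 35 of NIH3T3 mouse fibroblasts, 16 of LLC cells (a mouse lung carcinoma line), 4 of HT29 cells (human colorectal carcinoma) and 4 of BxPC3 cells (human pancreatic carcinoma). The treatments are ones known to open the plasma membrane, which was not measured here, and each was compared with its own untreated libraries. MLKL cells carried hMLKL1–181-2Fv, a human MLKL fragment with a dimerizable tag, and received the dimerizer AP20187 at 100 nM for 1 h. GSDMD cells carried mGSDMD1-276-HBD, a mouse GSDMD fragment joined to a hormone-binding domain, and received 4OHT, a tamoxifen metabolite, at 50 nM for 2.5 h. Parental NIH3T3 cells, which carry no construct, were given AP20187, and parental LLC cells were given 4OHT, at the same doses and times. No parental NIH3T3 cells were given 4OHT, and no parental LLC cells were given AP20187. The sterol-binding detergent digitonin was added to NIH3T3 and LLC cells labelled as without a construct at 55 µg/mL for 3 h and to parental HT29 and BxPC3 cells at 40 µg/mL for 2 h, each with untreated libraries of the same line. NIH3T3 MLKL cells were also given AP20187 in calcium-free medium, after an siRNA named siPKC or the control siCTR, and in cells labelled p65ko or noko, which all carry the MLKL construct. Each group held 2 libraries, except siPKC cells given AP20187 with 1. The labels do not say whether libraries came from separate cultures, or whether a line was a clone or a pool, so the p-values reflect the spread of these libraries alone, which may be technical.

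The cell cycle is driven by cyclins that activate cyclin-dependent kinases in turn: D-type cyclins in G1, cyclin E at the entry into S phase, cyclin A through S phase and G2, and cyclin B at mitosis. E2F factors switch on the replication genes in late G1, while many mitotic genes are held back in G1 by the DREAM complex and switched on in G2 by B-Myb and FoxM1. Many mitotic promoters carry CCAAT boxes, bound by NF-Y, and a CHR element, bound by MuvB complexes, and many replication genes carry E2F sites.

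Levels are given per library in TPM, the share of a library's transcripts scaled to a fixed total. A fold change is the treated minus the untreated mean of log2(TPM + 1). A gene passed where its Benjamini-Hochberg adjusted p, from limma's moderated test over all tested genes of a comparison, was under 0.05. Because TPM is a share, counts in a comparison are, where first given, set beside the share of all tested genes that passed in the same direction. Many are also set beside a repeat of the fit with every library centred on its median. In a culture, fewer cells in a phase and less RNA of that phase's genes per cell cannot be told apart.

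NIH3T3 libraries held 10 of 11 fibroblast markers above a mean of 1 TPM, and their 7 measured epithelial markers summed to at most 6.88 TPM. LLC libraries held only 3 of 7 epithelial markers above 1 TPM: Krt18 averaged 214 TPM, while Epcam, Cdh1, Cldn7 and Elf3 averaged under 1 TPM. HT29 and BxPC3 libraries held all 8 epithelial markers. Rela, the gene named by p65ko, held 13.6 to 19.9 TPM in p65ko libraries and 49.2 to 94.8 TPM in noko libraries. Prkca, a protein kinase C gene, held 6.72 to 8.05 TPM in siPKC libraries and 31.0 to 33.4 TPM in siCTR libraries, while of its relatives Prkcd held 38.6 to 40.2 TPM in siPKC libraries and 24.0 to 28.5 TPM in siCTR libraries, and Prkce 4.74 to 5.25 TPM in siPKC libraries and 3.90 to 4.26 TPM in siCTR libraries.

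The LLC libraries of the digitonin comparison went against their label for Gsdmd. They are labelled as without a construct, yet Gsdmd held 326 to 336 TPM in those given digitonin and 333 to 337 TPM in the untreated ones, against 20.6 to 22.6 TPM in the other LLC libraries without a construct, and LLC GSDMD cells held 336 to 342 TPM after 4OHT and 376 to 377 TPM untreated. Gsdmd held 10.7 to 12.1 TPM in NIH3T3 cells given digitonin and 13.2 to 13.9 TPM in their untreated libraries, against 5.44 to 6.14 TPM in the parental NIH3T3 libraries of the AP20187 comparison. The 4 LLC libraries are called by their label, LLC without a construct, and the tally over several comparisons is given with and without them.

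Promoters are shown for 6 members as examples of the motifs found before mitotic and S phase genes, as 150 bases before the start in RefSeq annotation of GRCm38.p6, 5′ to 3′ on the gene's strand. Ccnb1, Cdc20, Cdk1 and Ttk are mitotic, Mcm6 and Cdc6 are S phase genes. Capitals mark a CCAAT box (CCAAT), a CHR (TTTGAA or TTCGAA) or an E2F motif (TTCCCGC, also TTGGCGC and TTCGCGC), read on both strands, and overlapping matches run together.
Ccnb1, chr13:100786487-100786636, minus strand: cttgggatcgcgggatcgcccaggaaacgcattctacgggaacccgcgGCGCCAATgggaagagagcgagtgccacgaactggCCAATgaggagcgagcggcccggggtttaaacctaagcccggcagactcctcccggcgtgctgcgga
Cdc20, chr4:118437344-118437493, minus strand: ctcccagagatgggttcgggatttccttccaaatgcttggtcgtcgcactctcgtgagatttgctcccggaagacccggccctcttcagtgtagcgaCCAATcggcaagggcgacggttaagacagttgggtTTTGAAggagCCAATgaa
Cdk1, chr10:69352913-69353062, minus strand: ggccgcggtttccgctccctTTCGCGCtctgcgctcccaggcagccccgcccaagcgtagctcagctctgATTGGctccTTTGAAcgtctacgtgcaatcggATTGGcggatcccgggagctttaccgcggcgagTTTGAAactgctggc
Ttk, chr9:83834539-83834688, plus strand: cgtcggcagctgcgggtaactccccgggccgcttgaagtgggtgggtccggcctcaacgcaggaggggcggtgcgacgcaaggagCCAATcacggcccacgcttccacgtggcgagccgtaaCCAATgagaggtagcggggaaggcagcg
Mcm6, chr1:128359706-128359855, minus strand: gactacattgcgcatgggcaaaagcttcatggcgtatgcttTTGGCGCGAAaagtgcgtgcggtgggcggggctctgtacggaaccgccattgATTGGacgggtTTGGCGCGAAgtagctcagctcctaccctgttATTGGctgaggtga
Cdc6, chr11:98908001-98908150, plus strand: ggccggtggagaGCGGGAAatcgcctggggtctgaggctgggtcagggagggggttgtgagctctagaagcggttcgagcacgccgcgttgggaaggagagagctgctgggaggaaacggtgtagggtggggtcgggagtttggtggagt
In these windows, Cdk1 held 2 CHR matches, 2 CCAAT boxes and an E2F match, Cdc20 held a CHR and 2 CCAAT boxes, and Ttk held 2 CCAAT boxes. Ccnb1 held 2 CCAAT boxes, of which 1 overlapped an E2F match. Mcm6 held 2 CCAAT boxes and 4 E2F matches, and Cdc6 held an E2F match alone. The first start listed for each gene was used. In GENCODE vM21 the Cdc6 gene starts earlier, at base 98907801, so its window lies inside the gene by that annotation. The windows of Ccnb1, Cdc20 and Cdk1 also reach past the gene starts of GENCODE vM21. Over the 250 bases before the start, 14 of the 16 mitotic promoters in the table held a CCAAT box (87.5%), against 34.5% of all 27025 promoters, and 6 held a CHR (37.5%), against 17.4%. Of 11 S phase promoters, 5 held an E2F motif (45.5%), against 6.79% of all promoters, and 8 held a CCAAT box (72.7%). None of the 3 G1 promoters in the table (Ccnd3, Ccne1 and E2f1) held any of these letters in this window. A match is a description of sequence and not a bound site.

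Tallies were made over 12 comparisons, those of construct cells given their ligand in complete medium and of cells given digitonin. Mitotic genes were lower in more of them, at the median, than the other classes. The median mitotic gene passed as lower in 10 of the 12, and the median S phase or G1 gene in 7.5, against 6 for the 8080 genes tested in each. Without the LLC digitonin comparison, whose libraries held Gsdmd against their label, the medians over 11 were 9 for mitotic, 7.5 for S phase, 6.5 for G1 and 5 for all genes, and with calcium-free medium added the medians over 13 were 10, 8, 7.5 and 6. Ccna2 (cyclin A), Ccnb1 (cyclin B), Plk1 (a mitotic kinase), Aurkb (a kinase of the chromosomal passenger complex), Kif20a (a motor of cytokinesis) and the helicase gene Mcm2 passed as lower in 11 of 12, and in 10 of 11 without LLC digitonin. Of all genes tested in each, 13% passed as lower in 10 or more of the 12. Without LLC digitonin 5.39% did so in 10 or more of the 11. No member passed as lower in all 12, and Ccnd2 was tested in 10. Cdt1, which loads the replicative helicase, passed as higher in 8 comparisons and as lower in 1, Pcna, the replication clamp, as higher in 7 and as lower in 3, and E2f1, the factor that drives S phase genes, as higher in 5 and as lower in 1. With libraries centred, Ccna2 and Kif20a passed as lower in 12 of 12, and the medians were 9 for mitotic, 5 for S phase, 6 for G1 and 3 for all genes. The share of all genes that reached such counts as higher, or as lower with libraries centred, was not tallied.

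**Figure D1:**
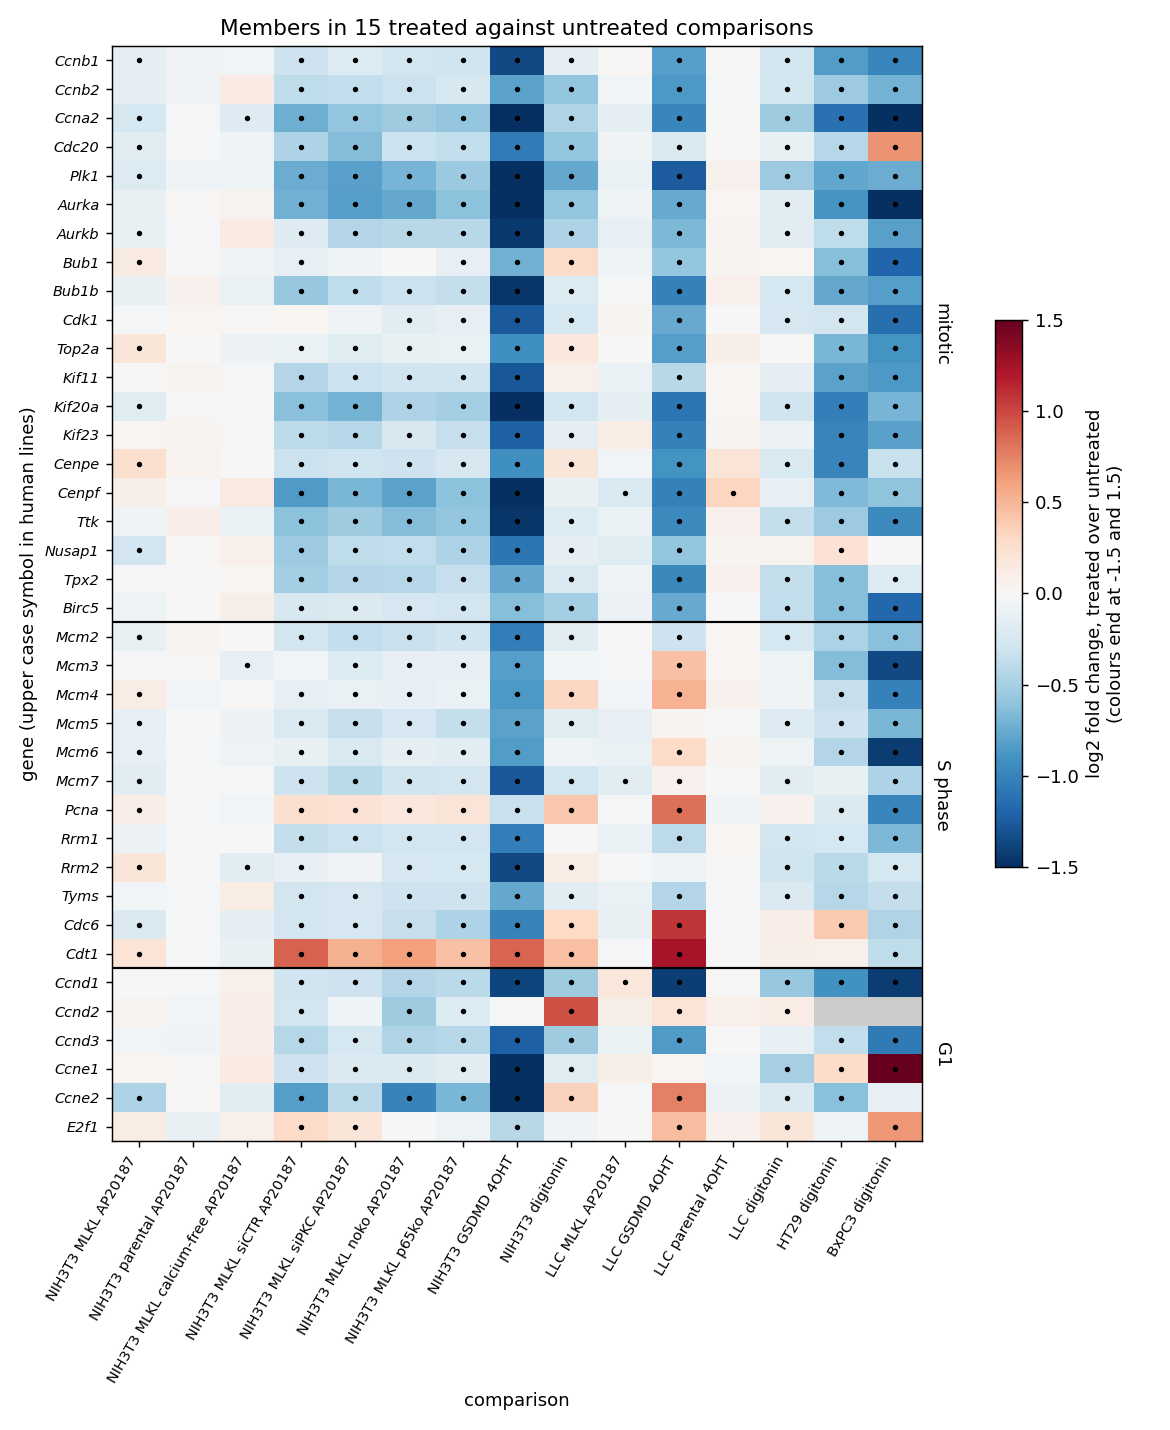
Log2 fold change of each member (rows, grouped as mitotic, S phase and G1) in 15 comparisons of treated with untreated libraries (columns). Dots mark an adjusted p under 0.05 and grey marks CCND2, which was not tested in the human lines. The mitotic rows are blue in most columns, darkest for NIH3T3 GSDMD cells, while Cdt1 and Pcna are red in many. The LLC digitonin column rests on libraries labelled as without a construct that held Gsdmd near the level of LLC GSDMD cells.

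**Figure D2:**
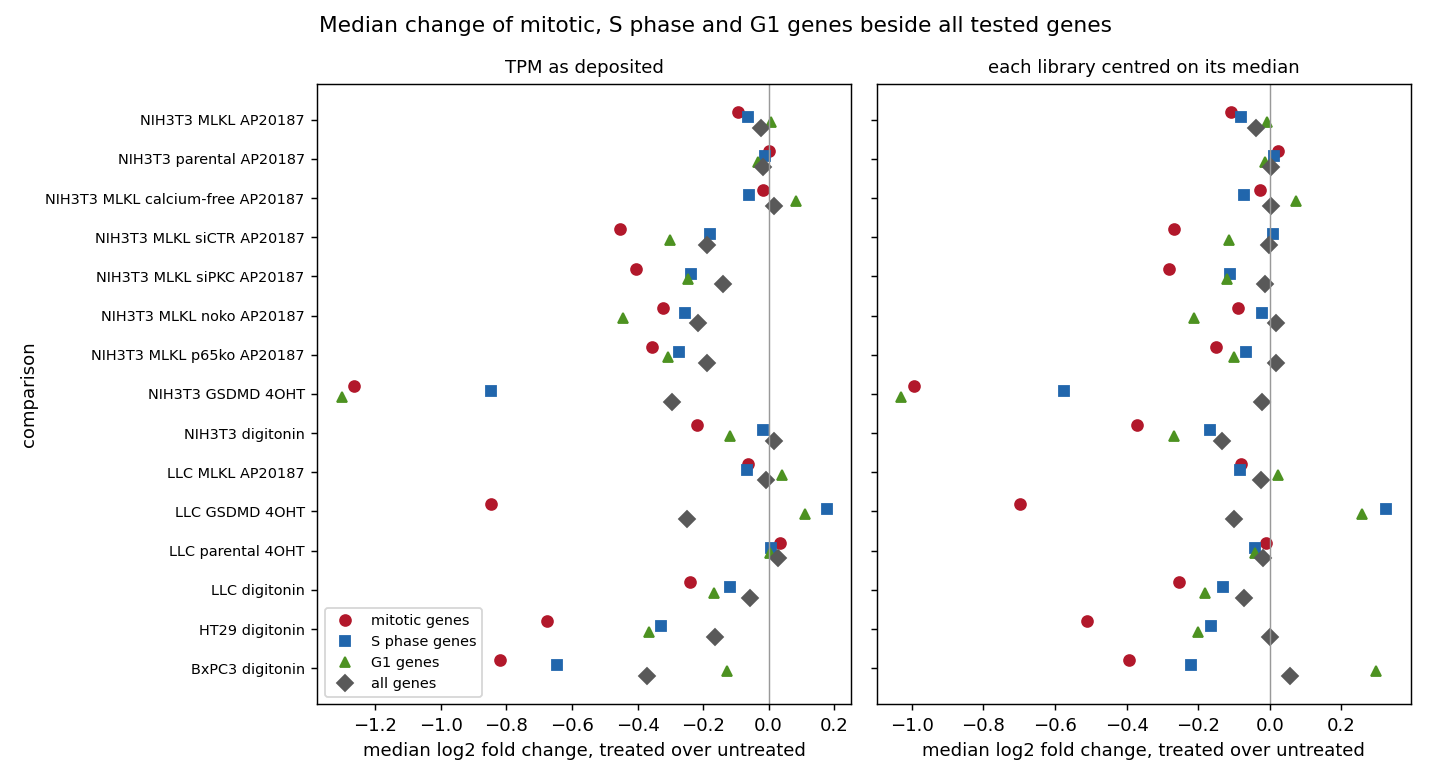
Median log2 fold change (x axis) of mitotic, S phase and G1 genes and of all tested genes in each comparison (y axis), from TPM as deposited (left) and with each library centred on its median (right). In LLC GSDMD cells the medians of the listed mitotic and S phase genes lie on opposite sides of 0, at -0.85 and 0.18 on the left.

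LLC GSDMD cells given 4OHT split the listed members: all 20 mitotic genes fell, while 7 of 12 S phase genes and 3 of 6 G1 genes rose. The rise did not extend to 50 further S phase genes described below, of which 28 fell and 15 rose (median -0.32). Lower members numbered 25 of 38, where 54% of all 10976 tested genes passed as lower. Higher members numbered 10, a share close to the 27.9% of genes that passed as higher. The median log2 fold change was -0.85 for mitotic, 0.18 for S phase and 0.11 for G1 genes, against -0.25 for all genes, and with libraries centred it was -0.70, 0.33 and 0.26, when 24 members were lower, where 45.7% of genes were, and 12 higher, where 34.9% were. Without any single library, all 20 mitotic genes stayed lower and 6 to 7 S phase genes were higher.

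Among mitotic genes, Plk1 had 48.0 and 49.5 TPM in LLC GSDMD cells given 4OHT, against 117 and 117 TPM in untreated ones, a log2 fold change of -1.25 ± 0.04 (SE, limma adjusted p = 2.42e-11). Kif20a had 47.4 and 42.2 TPM after 4OHT, against 97.2 and 95.4 TPM untreated (-1.09, adjusted p = 6.66e-10). Ccnb1 had 133 and 124 TPM after 4OHT, against 235 and 225 TPM untreated (-0.83, adjusted p = 5.22e-09). For these 3 genes both treated libraries lay below both untreated ones, as they did for 6442 of all 10976 tested genes. The mean level of Plk1 fell by 58.4%. Ttk, the kinase MPS1 of the spindle checkpoint, had 7.71 and 7.34 TPM after 4OHT, against 15.3 and 15.7 TPM untreated (-0.95). Cdc20, which activates the anaphase-promoting complex, moved least: it had 145 and 149 TPM after 4OHT, against 167 and 175 TPM untreated, a log2 fold change of -0.21 (adjusted p = 6.31e-04) that did not pass with libraries centred (-0.06) and turned to 0.16 once the trend with transcript length was removed.

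The S phase genes that rose were licensing and replication factors. Cdt1 had 165 and 184 TPM in LLC GSDMD cells given 4OHT, against 74.2 and 72.3 TPM untreated (1.24 ± 0.07 on the log2 scale, limma adjusted p = 5.26e-09). Cdc6, Cdt1's partner in helicase loading, had 56.6 and 54.5 TPM after 4OHT, against 26.0 and 25.8 TPM untreated (1.07, adjusted p = 7.17e-09), a level 2.14 times as high. For both genes each treated library lay above both untreated ones, as was so for 3481 of all 10976 tested genes. Pcna had 1081 and 1052 TPM after 4OHT, against 609 and 590 TPM untreated (0.83). Of the 6 subunits of the MCM helicase, Mcm4 (0.52), Mcm3 (0.44), Mcm6 (0.29) and Mcm7 (0.07) rose, Mcm2 fell (-0.31), and Mcm5 had 164 and 168 TPM after 4OHT, against 160 and 161 TPM untreated (0.05, adjusted p = 0.235). Nucleotide synthesis genes did not rise: Tyms, thymidylate synthase, fell by 0.44 on the log2 scale and Rrm1, the large ribonucleotide reductase subunit, by 0.39, and Rrm2 did not pass.

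The G1 genes moved both ways. Ccnd1, the cyclin D1 gene, had 134 and 132 TPM after 4OHT in LLC GSDMD cells, against 352 and 361 TPM untreated, a log2 fold change of -1.42 ± 0.02 (limma adjusted p = 4.24e-13), the largest fall among the 38 members. Ccnd3, another D cyclin, fell by 0.84. Ccne2, a cyclin E gene of the G1 to S transition, had 105 and 97.5 TPM after 4OHT, against 58.0 and 60.8 TPM untreated (0.76, adjusted p = 4.78e-07), and E2f1 had 33.4 and 33.9 TPM, against 25.4 and 23.2 TPM untreated (0.46). Ccnd2 rose by 0.19, and Ccne1 had a log2 fold change of 0.03 that did not pass.

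Parental LLC cells given the same 4OHT showed almost none of this. Cenpf, a kinetochore gene, was the only member that passed, as higher (0.33, limma adjusted p = 0.0272), where 0.819% of genes passed as higher and 0.045% as lower. An unadjusted p under 0.05 was held by 3 of 38 members and by 1271 of all 11110 tested genes. Cenpf lost its call whichever of the 4 libraries was left out, leaving 0 calls. Plk1 had 135 and 136 TPM in parental cells given 4OHT, against 132 and 127 TPM untreated. In the test of the difference between GSDMD and parental LLC cells, 34 of 38 members passed, 25 lower, where 49.4% of genes were lower, and 9 higher, where 22.4% were higher. The difference was -1.44 for Ccnd1, -1.31 for Plk1 and 1.08 for Cdc6.

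NIH3T3 GSDMD cells given 4OHT showed falls in all 3 classes. The effect of 4OHT without the construct was not measured in NIH3T3 cells. The 20 mitotic genes, 11 of 12 S phase genes and 5 of 6 G1 genes fell, 36 members in all, where 58.6% of 11632 tested genes passed as lower, and Cdt1 alone rose, where 20% passed as higher. Median log2 fold changes were -1.27 for mitotic, -0.85 for S phase and -1.30 for G1 genes, against -0.29 for all genes, and with libraries centred 35 members were lower, where 37% of genes were, and 2 higher, where 34.7% were. Plk1 had 15.9 and 15.3 TPM after 4OHT, against 83.6 and 80.9 TPM untreated, a log2 fold change of -2.33 ± 0.04 (limma adjusted p = 2.28e-22), and its level fell by 81.0%. Ccna2 had 43.7 and 38.4 TPM after 4OHT, against 159 and 150 TPM untreated (-1.89). These were the largest falls of any member in the 15 treated comparisons, and Aurka, a kinase of the spindle poles, followed with -1.69.

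The genes of G1 and S phase that rose in LLC cells mostly fell here: 8 of those 10 passed as lower, Cdt1 rose, and Ccnd2 had a log2 fold change of -0.03 that did not pass. Ccne2 had 6.96 and 6.36 TPM in NIH3T3 GSDMD cells given 4OHT, against 23.5 and 22.8 TPM untreated (-1.66, limma adjusted p = 6.36e-14). Cdc6 had 9.06 and 9.61 TPM after 4OHT, against 20.2 and 19.1 TPM untreated (-1.0), and Mcm4 had 85.8 and 86.6 TPM, against 159 and 156 TPM (-0.86). E2f1 fell by 0.42 and Pcna by 0.33, and Pcna did not pass with libraries centred (-0.06). Cdt1 had 186 and 202 TPM after 4OHT, against 104 and 106 TPM untreated (0.88, adjusted p = 5.12e-12), so it rose in both lines. Ccnd1 had 76.9 and 78.9 TPM, against 205 and 204 TPM, and its log2 fold change of -1.38 was close to that in LLC cells.

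**Figure D3:**
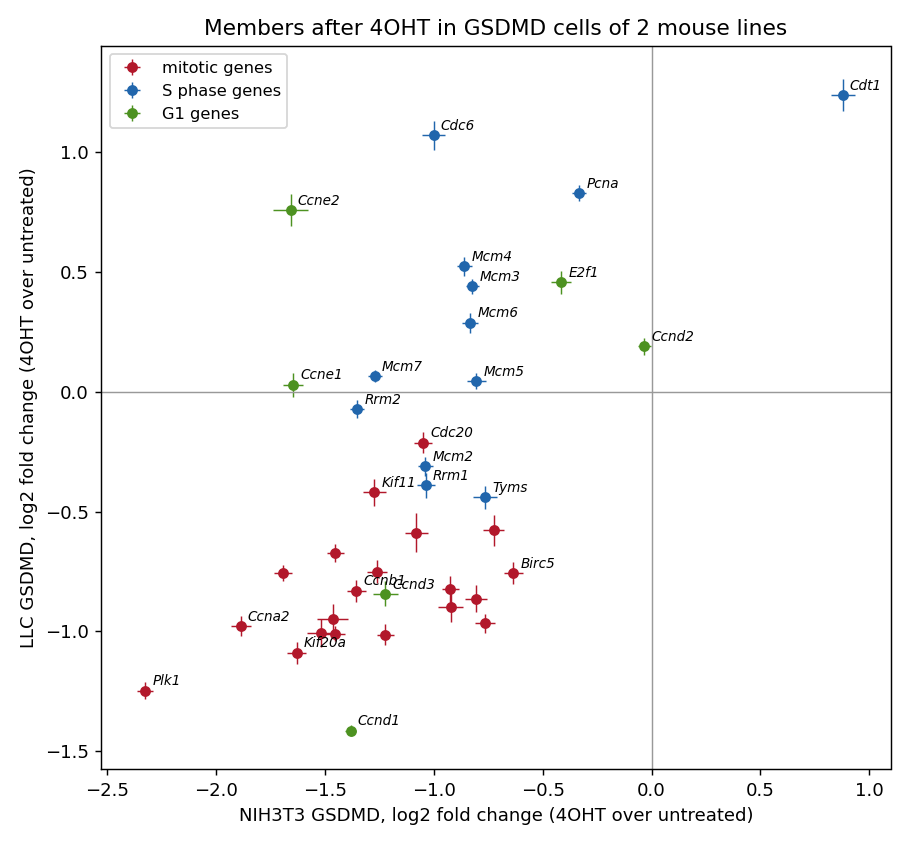
Log2 fold change of each member after 4OHT in NIH3T3 GSDMD cells (x axis) and LLC GSDMD cells (y axis), with standard errors. Mitotic genes lie below and left of 0 in both lines, while Cdc6 and Ccne2 sit at 1.07 and 0.76 in LLC cells and at -1.0 and -1.66 in NIH3T3 cells.

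**Figure D4:**
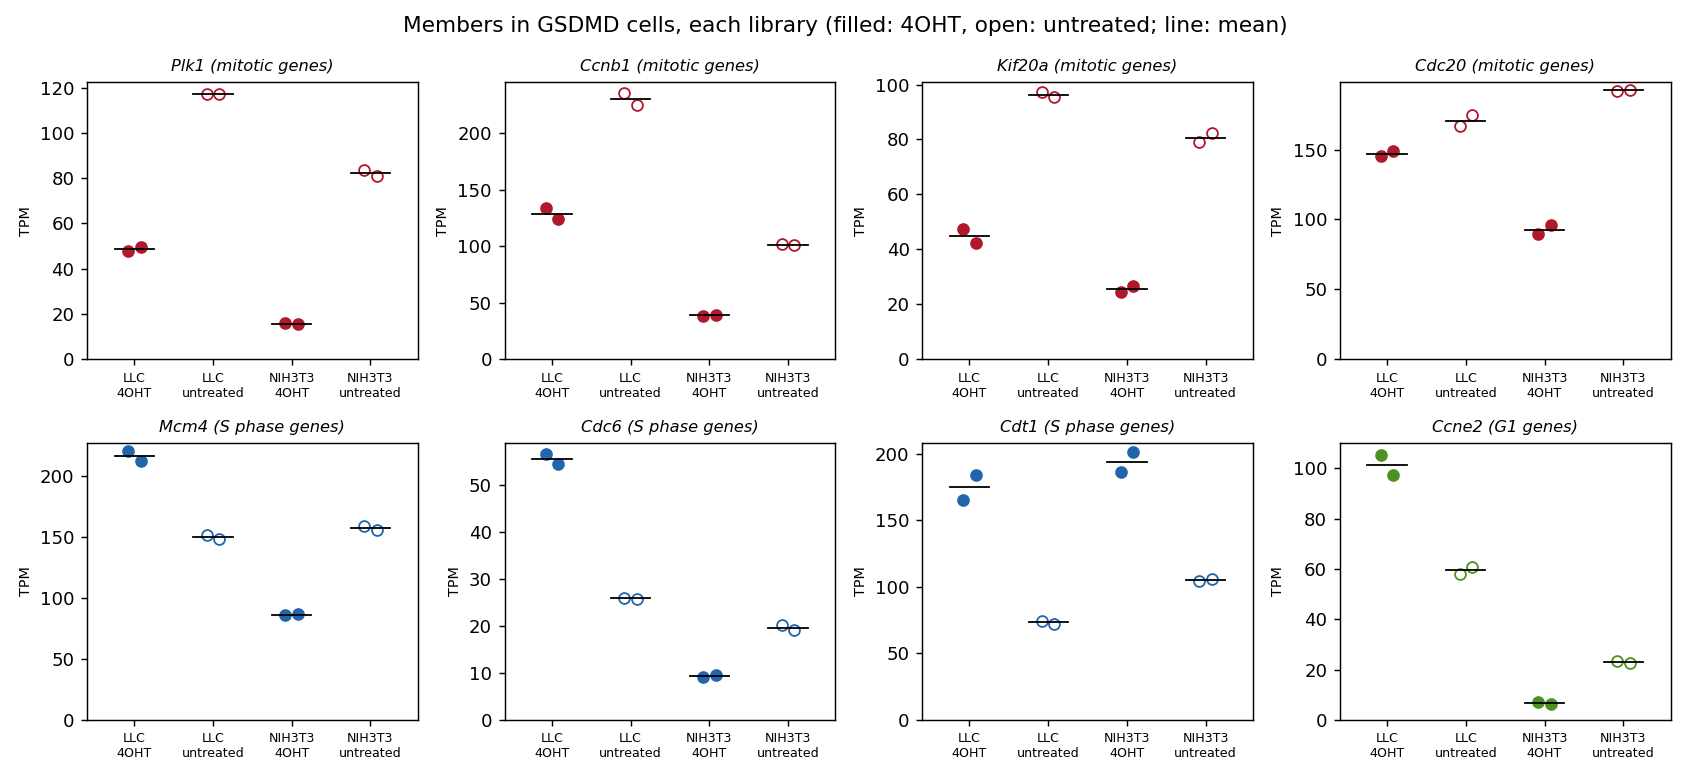
TPM (y axis, from 0) of 8 members in each library of GSDMD cells, filled for 4OHT and open for untreated, with the mean as a line. Plk1 is lower after 4OHT in both lines, and Cdc6 is higher in LLC cells (54.5 to 56.6 TPM) and lower in NIH3T3 cells (9.06 to 9.61 TPM).

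The difference between the lines was tested in a joint fit of both, added after the data were seen. Parental cells given 4OHT were available for LLC only, so this difference was not set against 4OHT alone. Of 38 members, 31 had a higher fold change in LLC than in NIH3T3 GSDMD cells, where 33.5% of 12340 genes did, and 1 had a lower one, where 27% did. All 12 S phase genes were among the 31, with a median difference of 1.14, and with libraries centred all 12 passed (1.05), where 27.6% of genes did. The difference was 2.42 ± 0.11 for Ccne2 (limma adjusted p = 3.91e-17), 2.07 for Cdc6, 1.67 for Ccne1 and 1.38 for Mcm4. Among mitotic genes 14 of 20 passed as less lowered in LLC cells, with Plk1 at 1.08 and Cdc20 at 0.84. Tpx2, a spindle assembly factor, was the 1 with a lower fold change in LLC cells (-0.20), and it did not pass without replicate 1 of NIH3T3 GSDMD cells given 4OHT. Ccnd1 had a difference of -0.03 (adjusted p = 0.352). Within a library, the median log2 level of mitotic genes minus that of S phase genes does not depend on the library's scale. It was -1.98 and -1.99 in LLC GSDMD cells given 4OHT, against -0.85 and -0.85 in untreated ones, and -1.59 and -1.53 in NIH3T3 GSDMD cells given 4OHT, against -0.89 and -0.81 in untreated ones. The gap between the classes thus widened in both lines, by more than the libraries of a group differed.

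NIH3T3 MLKL cells given AP20187 in complete medium showed small changes of both signs. Lower members numbered 13 of 38, where 16.5% of 11644 tested genes passed as lower, and higher members 7, where 15.8% passed as higher. Ccne2 had 18.7 and 20.0 TPM after AP20187, against 27.4 and 26.7 TPM untreated, a log2 fold change of -0.47 ± 0.08 (limma adjusted p = 1.08e-04), and was the only member past 0.3 in size. Nusap1 (-0.28), a spindle protein, Ccna2 (-0.26), Cdc6 (-0.22) and Plk1 (-0.20) also fell. Cenpe, a kinetochore motor (0.23), Cdt1 (0.21) and Rrm2, the small ribonucleotide reductase subunit (0.19), rose. The total of 20 calls dropped to 10 without replicate 1 of the AP20187 group, and to 8 when only the 4 libraries of the comparison were fitted. The difference of mitotic and S phase medians within a library overlapped between groups, at -0.89 and -0.79 after AP20187, against -0.83 and -0.86 untreated.

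Parental NIH3T3 cells given AP20187 had 0 of 38 members past the threshold by limma, where 0.287% of genes passed as lower and 0.0174% as higher. An unadjusted p under 0.05 was held by 1 of 38 members and by 724 of all 11504 tested genes. Plk1 had 84.0 and 84.5 TPM in parental cells given AP20187, against 88.2 and 86.9 TPM untreated. In the test of MLKL against parental responses, 13 members passed, 8 lower, where 8.1% of genes were, and 5 higher, where 12.4% were, and the largest was Ccne2 at -0.48 ± 0.11 (adjusted p = 0.00365). That count was 5 without replicate 2 of parental cells given AP20187, 8 without any 1 of 6 others, 13 without replicate 2 of MLKL cells given AP20187, and 3 when only these libraries were fitted. In calcium-free medium, 3 members passed, all lower, where 3.42% of genes passed as lower and 2.27% as higher: Ccna2 (-0.19), Rrm2 (-0.16) and Mcm3 (-0.12). Without any single library 1 of them passed. The difference of mitotic and S phase medians narrowed in this medium, to -0.79 and -0.77 after AP20187, against -0.91 and -0.93 untreated. The response in calcium-free medium differed from that in complete medium for 11 members, 6 lower, where 11.1% of genes were, and 5 higher, where 10.8% were. Nusap1 differed most, at 0.36 (adjusted p = 0.00183), and the count ran from 5, without replicate 2 of the calcium-free AP20187 group, to 10. Ccne2 differed by 0.30 and did not pass (adjusted p = 0.0611).

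The siPKC cells given AP20187 had 1 library, whose variance was taken from the other groups. Lower members numbered 31 of 38, where 37.5% of 11308 genes passed as lower, and 3 rose, where 10.5% passed as higher. The lower ones held 18 of 20 mitotic genes, with a median of -0.41 (-0.28 with libraries centred). With libraries centred 21 members were lower, where 19.9% of genes were, and 3 higher, where 19.2% were. Plk1 had 37.5 TPM in the siPKC library given AP20187, against 66.6 and 66.9 TPM in untreated siPKC libraries (-0.82, limma adjusted p = 2.58e-12), and Cdt1 had 93.0 TPM, against 64.3 and 63.8 TPM (0.53). The responses of siPKC and siCTR cells differed for 5 members. Aurkb (-0.25), Cdt1 (-0.35) and Mcm3 (-0.17) were lower in siPKC cells, where 3.33% of genes were, and Ccne2 (0.43) and Ccnd2 (0.22) higher, where 4.96% were. This count was 2 without replicate 1 of untreated or replicate 2 of treated siCTR cells, 3 without replicate 1 of untreated siPKC cells, 2 with the replicate block and 0 when only these libraries were fitted. Plk1 had a difference of -0.07 (adjusted p = 0.456).

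In MLKL cells given the control siRNA, AP20187 lowered most of the list against untreated siCTR cells: 19 of 20 mitotic, 9 of 12 S phase and 5 of 6 G1 genes fell, 33 members in all, where 51.8% of 11410 tested genes passed as lower, and 3 rose, where 13.7% passed as higher. The response was not tested against that of MLKL cells without siRNA. The median log2 fold change was -0.45 for mitotic genes and -0.18 for S phase genes, against -0.19 for all genes, and with libraries centred it was -0.27 for mitotic genes with 15 of 20 lower, where 27.1% of genes were, while the S phase median turned to 0.01. Plk1 had 63.9 and 63.6 TPM in siCTR cells given AP20187, against 106 and 109 TPM untreated (-0.74 ± 0.04, limma adjusted p = 1.59e-13). Kif20a had 76.2 and 75.7 TPM, against 117 and 118 TPM (-0.63), and Ccne2 had 15.05 and 15.2 TPM, against 29.3 and 26.2 TPM (-0.83). In each the 2 treated libraries lay below both untreated ones, as they did for 7029 of all 11410 tested genes. Cdt1 had 135 and 135 TPM after AP20187, against 70.3 and 75.2 TPM untreated (0.89), and E2f1 (0.29) and Pcna (0.24) rose too. The difference of mitotic and S phase medians within a library was -0.83 and -0.86 in siCTR cells given AP20187, against -0.33 and -0.27 untreated. In other untreated MLKL libraries without siRNA it was -0.83 and -0.86 in complete medium and -0.91 and -0.93 in calcium-free medium. It was -0.77 and -0.75 in untreated siPKC cells and -0.87 and -0.89 in untreated noko cells. Untreated p65ko cells, at -0.62 and -0.61, lay between the treated and untreated siCTR values. Why the untreated siCTR libraries lay above all of these was not tested.

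Before any AP20187, nearly the whole list was lower in siPKC than in siCTR cells. In untreated siPKC cells 36 of 38 members were lower than in untreated siCTR cells, where 21.7% of 11533 genes passed as lower, 1 was higher, where 23.9% were, and the median of all genes was near 0. All 20 mitotic genes fell (median -0.58), as did all 12 S phase genes (-0.27) and 4 of 6 G1 genes, and with libraries centred these counts did not change, where 23% of genes were lower. Kif20a had 64.0 and 70.6 TPM in siPKC cells, against 117 and 118 TPM in siCTR cells (-0.80 ± 0.04, limma adjusted p = 2.89e-12). Ccnb2, a second cyclin B gene, had 32.8 and 36.3 TPM, against 61.1 and 57.3 TPM (-0.76), and Kif23, the partner motor of the central spindle, had 68.4 and 71.4 TPM, against 121 and 114 TPM (-0.74). All 20 mitotic genes were lower in both siPKC libraries than in either siCTR library, as were 33% of all genes. Cdc6 fell by 0.43, the most of the S phase genes, and Ccnd1 by 0.50. Ccnd2 rose, with 97.7 and 104 TPM in siPKC cells, against 74.2 and 75.7 TPM in siCTR cells (0.42, adjusted p = 6.68e-10), and Ccnd3 had a log2 fold change of 0.07 that did not pass. Of 48 further G2 and M phase genes all 48 fell (median -0.56), led by Anln (anillin, of the cleavage furrow; -0.84), and of 50 further S phase genes 37 fell and 1 rose (-0.26). The median log2(TPM + 1) of mitotic genes was 6.05 and 6.12 in untreated siPKC libraries and 6.80 and 6.81 in siCTR libraries. It was 6.48 and 6.48 in untreated MLKL cells without siRNA, between the 2 siRNA groups. For S phase genes it was 6.82 and 6.88 with siPKC, 7.14 and 7.08 with siCTR, and 7.31 and 7.34 without siRNA. Neither siRNA group was tested against cells without siRNA. The labels do not name the siRNA sequences, and effects on other targets were not tested.

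**Figure D5:**
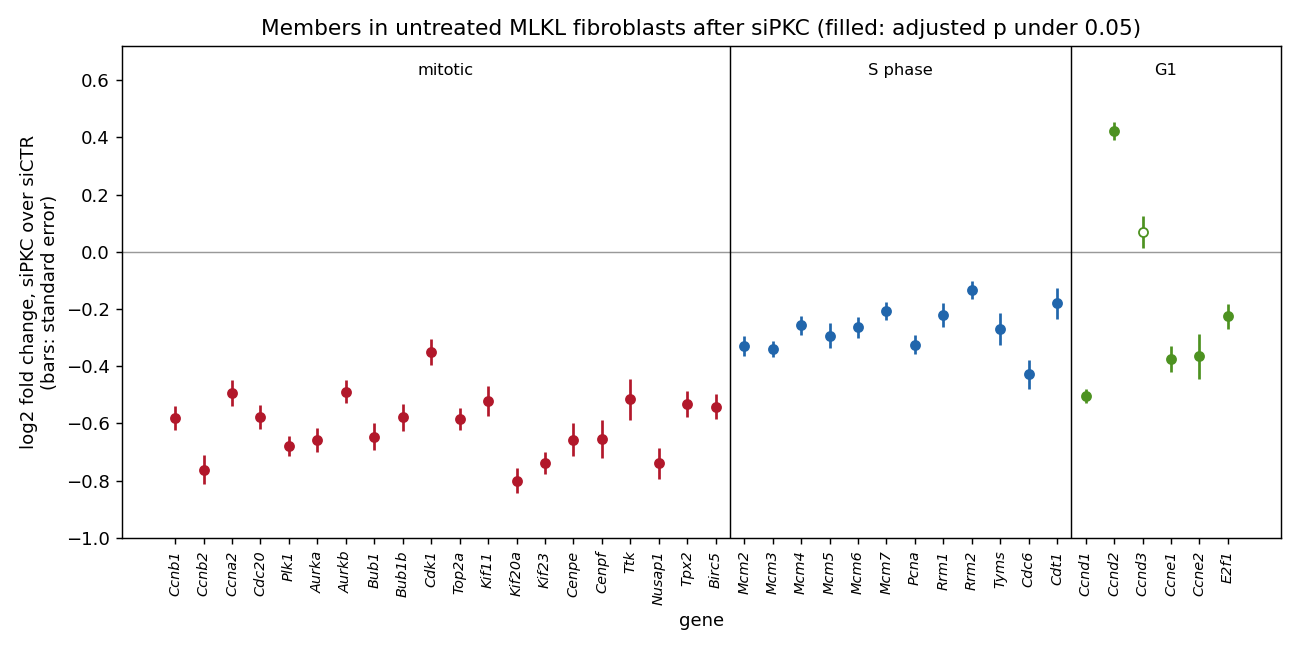
Log2 fold change of each member in untreated MLKL cells after siPKC relative to siCTR (y axis, bars are standard errors), in the order mitotic, S phase and G1 (x axis). Mitotic genes lie between -0.80 and -0.35 and S phase genes between -0.43 and -0.13, while Ccnd2 is above 0.

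In p65ko cells given AP20187, 35 of 38 members fell, where 50.4% of 11987 genes passed as lower, and in noko cells 34 of 38, where 55.5% of 11682 did. Cdt1 and Pcna rose in both, where 8.99% of genes passed as higher in p65ko and 10.6% in noko cells. The mitotic median was -0.36 in p65ko and -0.32 in noko cells, where the medians of all genes were -0.19 in p65ko and -0.22 in noko cells. With libraries centred fewer were lower and more were higher: 18 members were lower and 6 higher in p65ko cells, where 18.9% and 24.5% of genes passed in those directions, and 14 lower and 8 higher in noko cells, where 23.3% and 27.6% did. The mitotic genes held 12 of the lower ones in p65ko cells (median -0.15) and 9 in noko cells (-0.09), and of the S phase genes 3 were lower and 4 higher in p65ko cells, and 1 lower and 5 higher in noko cells. Plk1 had 44.1 and 43.4 TPM in p65ko cells given AP20187, against 65.5 and 63.9 TPM untreated (-0.56, limma adjusted p = 4.28e-11), and 35.0 and 35.0 TPM in noko cells given AP20187, against 58.3 and 56.6 TPM untreated (-0.70). Ccne2 had 18.1 and 17.4 TPM in p65ko cells given AP20187, against 27.1 and 31.5 TPM untreated (-0.69), and 12.7 and 14.5 TPM in noko cells given AP20187, against 28.4 and 27.8 TPM untreated (-1.0). Both genes were lower in every treated library. The same was so for 8144 of 11987 tested genes in p65ko cells and 8307 of 11682 in noko cells. The responses of p65ko and noko cells differed for 1 member, Ccnd2 (0.32 ± 0.04, limma adjusted p = 1.24e-04), where 2.34% of genes passed as higher. An unadjusted p under 0.05 was held by 5 of 38 members and by 1859 of all 12212 tested genes. In untreated cells 8 members were lower in p65ko than in noko cells, where 15.2% of genes were, and 8 higher, where 31.8% were. With libraries centred 13 were lower, where 23% of genes were, and 6 higher, where 20.5% were, and the S phase genes that were lower numbered 8 against 5 as deposited. Cdk1, the kinase of cyclin B, had 100 and 98.2 TPM in p65ko cells, against 139 and 136 TPM in noko cells (-0.47), and Kif23 had 96.6 and 97.7 TPM, against 71.1 and 73.3 TPM (0.42).

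Calcium-free medium lowered many members before any AP20187. In untreated MLKL cells 22 of 38 members were lower without calcium in the medium than with it, where 27.7% of 11587 genes were, and 1 was higher, where 8.55% were. With libraries centred 12 were lower, where 16.2% of genes were, and 4 higher, where 21.1% were. Ccne2 had 13.4 and 15.9 TPM in calcium-free medium, against 27.4 and 26.7 TPM in complete medium (-0.85 ± 0.08, limma adjusted p = 3.00e-08). Plk1 had 45.5 and 46.7 TPM, against 67.0 and 65.9 TPM (-0.52). For both genes the calcium-free libraries lay below those in complete medium, as they did for 5601 of all 11587 tested genes.

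LLC MLKL cells given AP20187 changed little. Cenpf (-0.23, limma adjusted p = 0.0378) and Mcm7 (-0.17) fell, where 2.08% of 11166 genes passed as lower, and Ccnd1 rose (0.17), where 5.48% passed as higher. Cenpf lost its call without any 1 of the 4 libraries. Plk1 had 117 and 110 TPM after AP20187, against 123 and 121 TPM untreated (-0.10, adjusted p = 0.108). The response differed from that of NIH3T3 MLKL cells for 5 members, 3 lower in LLC cells, where 7.05% of genes were, and 2 higher, where 5.87% were, and Ccne2 differed most (0.43 ± 0.11, adjusted p = 0.00814). That count was 3 without replicate 1 of untreated NIH3T3 cells or replicate 1 of treated LLC cells, and 8 without replicate 2 of treated NIH3T3 cells.

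Digitonin lowered most mitotic genes in both mouse lines. In the libraries labelled LLC without a construct, whose Gsdmd level was close to that of LLC GSDMD cells in both groups, it lowered 23 members, where 32.2% of 11112 genes passed as lower, and raised 2, where 20.3% passed as higher. The 23 held 14 of 20 mitotic genes (median -0.24, and -0.25 with libraries centred), 6 of 12 S phase genes and 3 G1 genes. Ccnd1 had 245 and 241 TPM after digitonin, against 364 and 357 TPM untreated (-0.57, limma adjusted p = 5.24e-09), Plk1 had 77.8 and 77.0 TPM, against 111 and 116 TPM (-0.55), and Ccna2 had 103 and 102 TPM, against 154 and 144 TPM (-0.53). For these 3 genes all treated libraries lay below the untreated ones, as they did for 4850 of all 11112 tested genes. E2f1 (0.19) and Ccnd2 (0.11) rose, and Ccnd2 lost its call without replicate 2 of the untreated group or either treated library. Cdt1 had a log2 fold change of 0.09 that did not pass. In the joint fit, added after the data were seen, digitonin responses differed between the libraries labelled LLC and NIH3T3 for 20 members, 12 lower in LLC cells, where 36% of genes were, and 8 higher, where 19.4% were. Ccnd2 differed most (-0.85 ± 0.04, adjusted p = 1.08e-15). With libraries centred 9 were lower, where 28.4% of genes were, and 14 higher, where 30.2% were. The Gsdmd level differed between these cells too, so line and construct cannot be told apart in this difference.

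In NIH3T3 cells given digitonin 22 members fell and 10 rose, where 34.2% and 39.3% of 11330 genes passed in those directions, and the falls included 15 of 20 mitotic genes and 4 of 12 S phase genes. The mitotic median was -0.22, against 0.02 for all genes, and -0.37 with libraries centred, when 16 were lower, where 46.3% of genes were, and 1 higher, where 31.3% were. Plk1 had 47.4 and 45.6 TPM after digitonin, against 80.9 and 79.1 TPM untreated (-0.77 ± 0.04, limma adjusted p = 2.79e-14). Cdc20 had 148 and 143 TPM, against 229 and 208 TPM (-0.58). Both were lower in each treated library than in either untreated one, as were 4582 of all 11330 tested genes. Bub1 (0.29), a checkpoint kinase, Cenpe (0.18) and Top2a, topoisomerase II (0.16), rose, and Cenpe and Top2a did not pass with libraries centred. The largest rise was that of Ccnd2, with 76.9 and 77.7 TPM after digitonin, against 39.1 and 39.6 TPM untreated (0.96), and its level rose by 96.5%. Cdt1 (0.46), Ccne2 (0.35) and Cdc6 (0.30) also rose, and Ccnd1 fell (-0.53).

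In the human lines 37 members were tested. In BxPC3 cells digitonin lowered 32 of them, where 56.9% of 13566 genes passed as lower, and raised 3, where 23.7% passed as higher. The median was -0.82 for mitotic and -0.65 for S phase genes, against -0.37 for all genes, and -0.39 and -0.22 with libraries centred, when 16 mitotic genes were lower, where 36.9% of genes were, and 3 higher, where 41.3% were. AURKA had 28.1 and 28.1 TPM after digitonin, against 88.0 and 90.8 TPM untreated (-1.64 ± 0.03, limma adjusted p = 5.78e-08), CCNA2 fell by 1.64 and MCM6, a helicase subunit, by 1.43. Against these falls, CCNE1 had 118 and 118 TPM after digitonin, against 26.3 and 27.2 TPM untreated, a log2 fold change of 2.10 ± 0.05 (adjusted p = 8.07e-08) and the largest rise of any member in the treated comparisons. CDC20 had 297 and 293 TPM, against 178 and 191 TPM (0.67), the 1 mitotic gene to rise here, and E2F1 had 29.3 and 27.8 TPM, against 17.5 and 18.1 TPM (0.65). The lines differed in 28 members, 20 lower in BxPC3 than in HT29 cells, where 43.5% of genes were, and 8 higher, where 20.6% were, while with libraries centred 12 were lower, where 29.3% of genes were, and 12 higher, where 30.4% were. CCNE1 (1.82), CDC20 (1.10) and CDC6 (-0.84) differed in either fit.

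In HT29 cells digitonin lowered 31 members, where 44% of 12193 genes passed as lower, and raised 3, where 16.5% passed as higher. The mitotic median was -0.68, against -0.16 for all genes and -0.51 with libraries centred, when 28 members were lower, where 28.9% of genes were, and 4 higher, where 27.6% were. CCNA2 had 51.3 and 45.6 TPM after digitonin, against 104 and 108 TPM untreated (-1.12 ± 0.08, limma adjusted p = 2.76e-05), and KIF20A had 20.2 and 20.1 TPM, against 42.8 and 41.6 TPM (-1.03). KIF23 and CENPE fell by 0.99 each. For CCNA2 and KIF20A every treated library lay below both untreated ones, as was so for 6967 of all 12193 tested genes. The 3 that rose were CDC6, with 116 and 111 TPM, against 85.8 and 87.3 TPM untreated (0.39), CCNE1 (0.28), a cyclin E gene, and NUSAP1 (0.22). CCND1 had 36.6 and 32.9 TPM, against 67.6 and 64.7 TPM (-0.91), and the difference between mitotic and S phase medians within a library was -1.03 and -1.04 after digitonin, against -0.67 and -0.62 untreated.

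Other cell cycle genes were read from lists drawn up beside the members, against shares of all genes of 54% lower and 27.9% higher in LLC GSDMD cells and 58.6% lower and 20% higher in NIH3T3 GSDMD cells. With libraries centred the shares were 45.7% lower and 34.9% higher in LLC GSDMD cells. They were 37% lower and 34.7% higher in NIH3T3 GSDMD cells. In LLC GSDMD cells given 4OHT, 40 of 48 further G2 and M phase genes fell and 3 rose (median -0.56), led by Spc25, a kinetochore subunit (-1.58), while of 50 further S phase genes 28 fell and 15 rose (-0.32), shares close to those of all genes, with Dtl, of the ligase that degrades Cdt1, at 0.99 and Tk1, thymidine kinase, at -1.68. In NIH3T3 GSDMD cells 47 of 48 and 49 of 50 fell, and Tk1 had a log2 fold change of -1.79. With libraries centred 35 of the G2 and M phase genes were lower and 6 higher in LLC GSDMD cells, and 26 of the S phase genes were lower and 19 higher, while 45 and 46 were lower in NIH3T3 GSDMD cells. Among 19 E2F, Rb and DREAM regulators, 11 rose in LLC GSDMD cells, led by the repressor E2f7 (1.21), and 8 fell, including Foxm1 (-0.84), while 16 of the 18 tested fell in NIH3T3 GSDMD cells. With libraries centred 11 were higher and 5 lower in LLC GSDMD cells, and 12 were lower in NIH3T3 GSDMD cells. Of 4 kinase inhibitors tested, 2 rose and 2 fell in LLC GSDMD cells (lowest -0.92), and 1 rose and 2 fell in NIH3T3 GSDMD cells (lowest -1.27). Cdkn1a, the p21 gene, averaged 565 TPM in LLC GSDMD cells given 4OHT, against 206 TPM untreated (1.45). In NIH3T3 GSDMD cells it averaged 433 TPM after 4OHT, against 99.0 TPM untreated (2.12). CDKN1A averaged 954 TPM in BxPC3 cells given digitonin, against 59.0 TPM untreated (3.99). In HT29 cells it averaged 124 TPM after digitonin, against 3.41 TPM untreated (4.83). Of 5 kinase inhibitors tested in BxPC3 cells, 4 rose and 1 fell (lowest -1.41), where 23.7% of genes rose and 56.9% fell. Of 7 tested in HT29 cells, 4 rose and 1 fell (lowest -1.57), where 16.5% of genes rose and 44% fell. Cdkn1b, the p27 gene, rose in LLC GSDMD cells (0.71) and fell in NIH3T3 GSDMD cells (-1.20). Of the growth and arrest genes, 15 of 19 tested rose in LLC GSDMD cells and 12 of 20 in NIH3T3 GSDMD cells, with the growth arrest gene Gadd45a at 4.02 in LLC cells and Plk3, a stress kinase, at 4.05 in NIH3T3 cells, while with libraries centred 16 were higher in LLC and 15 in NIH3T3 GSDMD cells. Btrc, a subunit of an SCF ubiquitin ligase, fell in LLC GSDMD cells (-1.29), and all 19 genes of the APC/C and SCF ligases fell in NIH3T3 GSDMD cells, led by Fbxo5 (-1.77), an inhibitor of the APC/C, which rose in LLC GSDMD cells (0.71), while with libraries centred 12 of the 19 were lower in NIH3T3 GSDMD cells.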

How the data were processed

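Polyadenylated RNA was quantified by the authors with Salmon, and mm10 and hg19 are the builds named, per the submitters' processing notes. Salmon's version and the way transcripts were summed by gene are details not given in the sources used here. The deposited values are TPM, read as such from library totals near 1000000. TPM keep no depth, so depth and counting error are unknown and the spread between libraries is the measure of precision. The moderated test of limma 3.58.1, with a mean-variance trend and run under R 4.3.3, took log2(TPM + 1), which understates changes of low genes, in 1 model per mouse line and a joint model of HT29 and BxPC3, over genes with at least 1 TPM in 2 libraries of the comparison, with Benjamini-Hochberg adjustment over all of them and a threshold of 0.05. There were 15 treated comparisons, 3 of untreated cells and 6 interactions, and 3 interactions between LLC and NIH3T3 cells were added after seeing the data, as were the tallies without LLC digitonin and with calcium-free medium. The design named a test for counts first and limma for a normalized unit, and limma was used because the values are TPM.

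All 38 members may be named. In each comparison the text draws on the 3 largest rises and 5 largest falls past the threshold and on Ccnb1, Plk1, Cdc20, Kif20a, Mcm5, Cdc6, Ccnd1, Ccne2 and E2f1, and from each other list on its 2 largest rises and falls. Members and lists were chosen with earlier results of these data known. Promoter sequences came from a RefSeq table of GRCm38.p6, which held 30 of the 38 members, matched by symbol. Libraries of a group correlated at 0.988 to 0.996. The fit was tested on simulated data. Alternatives were a pseudocount of 0.1, no filter, median centring, quantile normalization, removal of the trend with transcript length (GENCODE vM21), fitting a comparison's own libraries only, a block for replicate number, and omitting libraries singly. Python 3.11.15 drew the figures, using matplotlib 3.10.9 with numpy 2.4.6.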

Additional observations from a re-analysis of the deposited data

Results flagged for a closer look

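Responses that differed between cells or media, by limma's test of the difference, are given here with the number of members past the threshold and the member that differed most on the log2 scale. For 4OHT, GSDMD and parental LLC cells differed in 34 members (Ccnd1 at -1.44), and LLC and NIH3T3 GSDMD cells in 32 (Ccne2 at 2.42). For digitonin, BxPC3 and HT29 cells differed in 28 members (CCNE1 at 1.82), and the libraries labelled LLC and NIH3T3 in 20 (Ccnd2 at -0.85), where line and construct cannot be told apart, since Gsdmd was near the level of LLC GSDMD cells in these LLC libraries. For AP20187, MLKL and parental NIH3T3 cells differed in 13 members (Ccne2 at -0.48), calcium-free and complete medium in 11 (Nusap1 at 0.36), siPKC and siCTR cells in 5 (Ccne2 at 0.43), LLC and NIH3T3 MLKL cells in 5 (Ccne2 at 0.43) and p65ko and noko cells in 1 (Ccnd2 at 0.32). Ccne2 was the member that differed most in 4 of these 9 tests, which share libraries. No cause of any difference was tested.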

How the results depend on the processing

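Of 24 planned counts of members past the threshold, all stayed within 1.5 times under a pseudocount of 0.1 and without the filter. Centring libraries on their median gave 22 for noko and 24 for p65ko cells given AP20187 (36 and 37 as reported) and 7 for LLC MLKL cells (3), and quantile normalization gave 8 for LLC MLKL cells and 3 for siPKC against siCTR responses (5). Removing the trend with transcript length, which could not be run for the human lines, gave 23 for noko, 22 for p65ko, 6 for LLC MLKL, 0 for parental LLC cells given 4OHT (1) and 8 for siPKC against siCTR. Fitting only the libraries of a comparison gave 8 for NIH3T3 MLKL cells (20), 0 in calcium-free medium (3), 0 for parental LLC cells, 3 for MLKL against parental (13), 0 for siPKC against siCTR and 2 for p65ko against noko (1). Leaving out single libraries gave 10 to 17 for NIH3T3 MLKL cells, 1 in calcium-free medium, 0 for parental LLC cells, 5 to 13 for MLKL against parental, 5 to 10 for calcium-free against complete medium (11), 2 to 5 for siPKC against siCTR and 3 to 8 for LLC against NIH3T3 MLKL cells (5). The replicate block gave 5 for LLC MLKL cells and 2 for siPKC against siCTR, and moved no other count by over 1.5 times. Replicate numbers did not pair the libraries, since correlations of their deviations ran from -0.05 to 0.13 over 13 pairs with 1 over 0.1. Signs turned for E2f1 in p65ko cells (0.13 centred, 0.15 without the length trend), Cdc20 in LLC GSDMD cells (0.16 without the length trend) and in their difference from parental cells (0.18), CCNE2 in BxPC3 cells (0.30 centred, 0.27 by quantiles) and, for digitonin in the libraries labelled LLC against NIH3T3, Ccnd1 (0.0942 centred, 0.19 without the length trend), Cenpe (0.20) and Cdc6 (0.0077). The cause of these shifts was not tested. With 2 libraries a group and TPM of unknown depth, small changes such as those of MLKL cells without siRNA rest on the pooled variance.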
